A study of Mus musculus with 6 samples.

Results

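The genes described here encode the lysosome: the subunits of its proton pump, its hydrolases, its membrane proteins and the proteins that assist them. A list of 46 genes was followed through 6 single-colour Illumina BeadChip arrays of mouse bone marrow cells, and its members were taken as every probe whose gene symbol is on the list. The list matched 90 of the 45281 probes of the array, which carried 19057 gene symbols in all. Of the 46 genes, 39 were tested among 9561 genes. Atp6v0d2, Gla, Acp5 and Tfeb had a probe but were not above background on any array, and no probe listed under Atp6v0c, Atp6v1f or Cd68 was found in the annotation used here, so these 7 genes were not tested. Each of the 39 tested members was above background on all 6 arrays, so none of them entered through 1 group alone.

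The study compared 2 populations sorted by flow cytometry from the bone marrow of female C57BL/6 mice aged 7 weeks. CCR9+ pDC arrays (n = 3) hold plasmacytoid dendritic cells, which make type I interferon after sensing nucleic acid in their endosomes, sorted with the chemokine receptor CCR9 on their surface. CCR9- pDC-like precursor arrays (n = 3) hold cells without CCR9, described by the series as common dendritic cell progenitors. No genotype or treatment is given for either group. The series describes 3 independent isolations, and the labels do not say whether cells of several mice were pooled.

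Between 15254 and 16905 probes per array were above background, fewest on CCR9+ pDC replicate 3, and the median probe signal ran from 135.9 to 163.6. The mean correlation of an array with its own group over genes was 0.976 for that array and 0.983 to 0.993 for the others. The Ccr9 probe was not above background, so the sorted marker does not check the labels. Of the other pDC markers, Tcf4 and Irf8, transcription factors of the lineage, were above background on every array. Monocyte and macrophage, granulocyte, and basophil and mast cell genes were higher on the CCR9+ pDC arrays. Of all 9561 genes tested, 17.6% were higher there and 18.2% lower, 35.8% in all. Of the 16 monocyte and macrophage markers listed, 13 were tested and 13 were higher there, and the summed signal of the list was 32430 to 41060 against 2820 to 3428 on the precursor arrays. C1qa, Fcgr1 and Siglec1 of that list were not above background on any precursor array. They were tested only because they were above background on the CCR9+ pDC arrays, so their place among the 13 is no support. Granulocyte markers were higher for 7 of 7 genes (summed signal 89650 to 101500 against 46390 to 54110), and basophil and mast cell markers for 5 of 5 (2067 to 3762 against 381.9 to 741.8). Among pDC markers 4 of 10 were higher and 1 lower (106800 to 119200 against 85680 to 90150), and among conventional dendritic cell markers 2 of 5 were higher and 2 lower (3599 to 4356 against 3047 to 3531). Zbtb46, of the latter 2, was above background on the precursor arrays only, so its place there is no support. Of the B cell markers 1 of 3 passed, of the T cell markers 1 of 2, of the osteoclast markers 1 of 1 and of the erythroid markers 0 of 2, each that passed being higher in CCR9+ pDCs. Of the latter Hba-a1, the erythroid gene of highest signal, differed by 0.52 without passing (adjusted p = 0.174). The part of these cells in the lysosomal results was not tested.

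The lysosome is kept acid by the vacuolar proton pump (V-ATPase). Its cytosolic V1 sector hydrolyses ATP and its membrane V0 sector carries protons inward. Acid pH activates the hydrolases, which break down glycans, lipids, proteins and nucleic acids, while heavily glycosylated membrane proteins line the organelle and export its products. In dendritic cells the compartment also processes antigen, and in pDCs the related endosomes are where nucleic acid receptors signal. Many of these genes are targets of TFEB and the related TFE3, basic helix-loop-helix factors that bind a sequence with the core CACGTG.

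Many hydrolases and membrane proteins were higher in CCR9+ pDCs than in precursors, and the median difference of the pump genes was smaller than that of either. Differences are CCR9+ pDC minus precursor on the log2 scale of normalized signal, so positive values are higher in CCR9+ pDCs, and a gene passes at an adjusted p below 0.05 in the limma fit over all genes. Among the 39 tested members 18 rose and 2 fell in CCR9+ pDCs, while 17.6% of all 9561 genes rose and 18.2% fell, 35.8% in all. The groups did not overlap for 29 of the 39, 25 of them higher in CCR9+ pDCs, against 50.9% of all genes, 24.2% higher and 26.7% lower. Of the 16 hydrolases tested 9 rose and 2 fell, with a median difference of 0.50, and of the 6 membrane proteins 5 rose and none fell, with a median of 0.62. Within the hydrolases the median was 0.22 for the 9 glycosidases and sulfatases and 0.78 for the 7 others. Of the 13 pump genes 3 rose and none fell, with a median of 0.23, against a median of -0.025 for all genes. The pump median did not lie below that of the glycosidases and sulfatases. The share of genes that rose was thus 23.1% for the pump and 56.2% for the hydrolases, but this gap depended on the setting. It was 53.8% against 56.2% with no background correction, after cyclic loess or with an intensity trend in the prior, and 61.5% against 62.5% on the authors' processed table. The share of all genes that rose was 19%, 19.6%, 19.4% and 22% in these settings, in that order. With arrays scaled to a common median instead, all genes together had a median of -0.19, and relative to it the pump median was 0.199 and the hydrolase median 0.524, against 0.254 and 0.525 before. A difference of at least 2-fold was found for 5 members that rose (Pld3, Lipa, Neu1, Gaa and Scarb2) and for 1 that fell (Arsb), which compares with 6.97% and 5.80% of all genes. Less RNA per cell and fewer cells of a type cannot be told apart in these bulk samples.

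**Figure D1:**
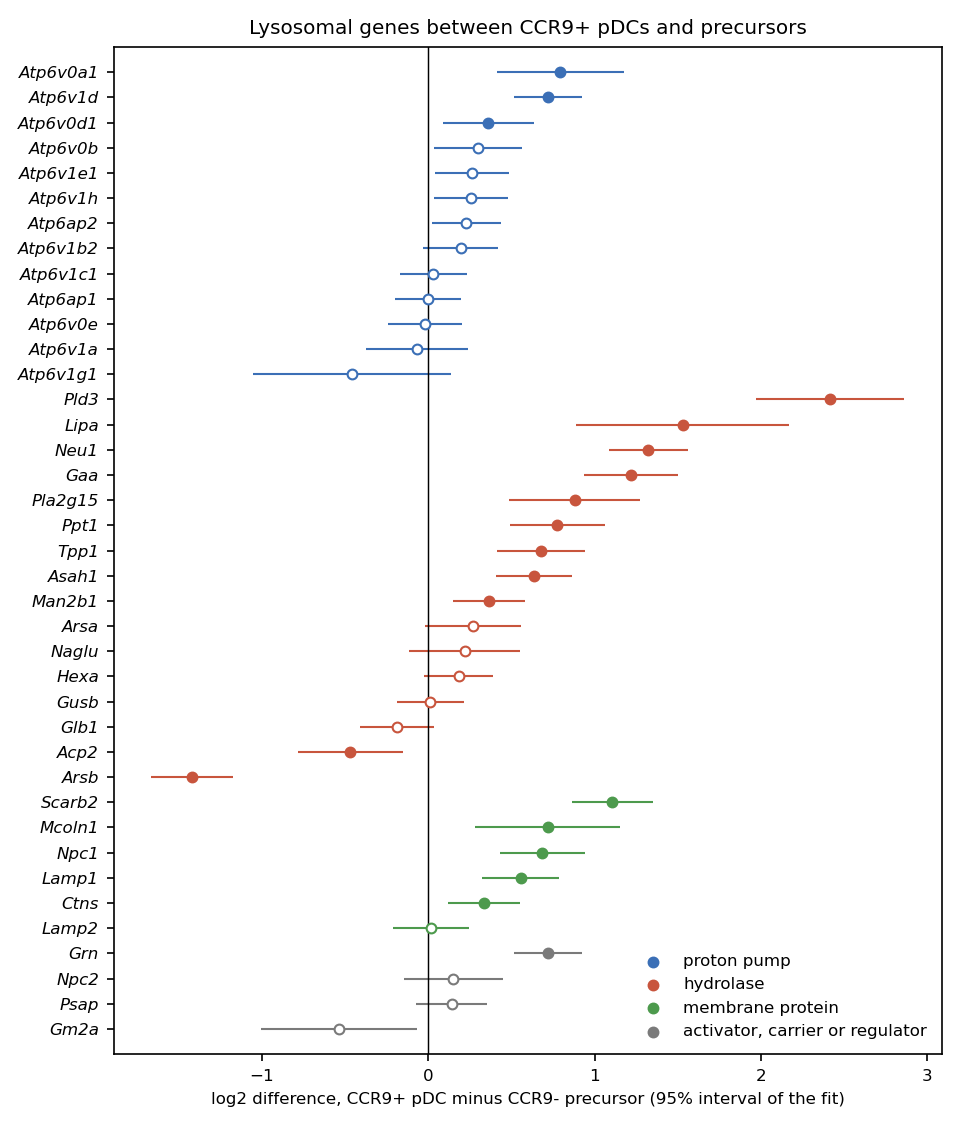
Log2 difference of each of the 39 tested lysosomal genes (CCR9+ pDC minus CCR9- precursor, 3 arrays each) with its 95% interval from the limma fit. Filled points passed the adjusted p threshold and open points did not; the pump genes lie between -0.46 and 0.79, the hydrolases between -1.42 and 2.42.

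The same contrast showed in each array. Relative to the precursor mean, the mean signal of the 13 pump genes was higher by 0.217, 0.181 and 0.203 (log2) on CCR9+ pDC replicates 1, 2 and 3. The mean of the 16 hydrolases was higher by 0.536, 0.591 and 0.454 on those arrays, and that of the 6 membrane proteins by 0.516, 0.560 and 0.634. On each CCR9+ pDC array the shift of the hydrolases was thus larger than that of the pump. The hydrolases were also the more varied set, since their differences had quartiles at 0.14 and 0.97, against 0.00034 and 0.30 for the pump. The hydrolase median stayed above the pump median under each of the 15 alternative settings, by 0.105 to 0.454. No p is given for these medians, because the list was drawn up with results of these arrays known.

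**Figure D2:**
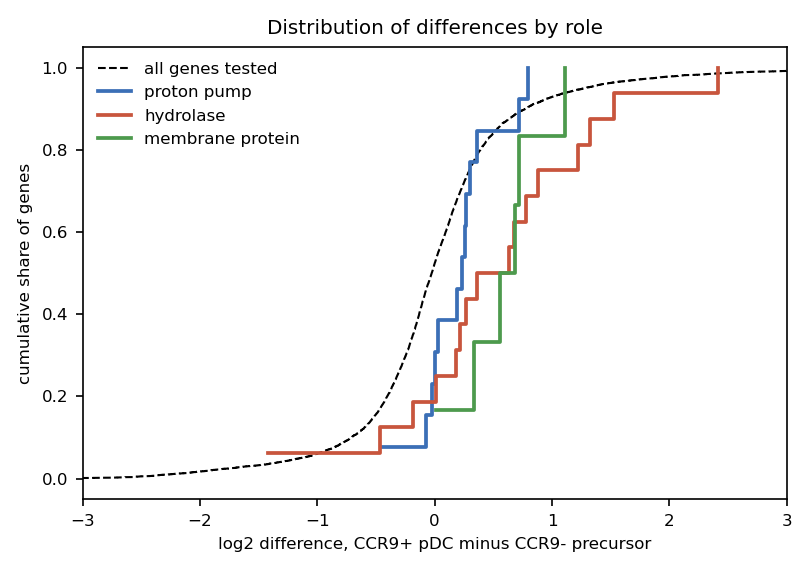
Cumulative share of genes (vertical axis) against the log2 difference between CCR9+ pDCs and precursors (horizontal axis, drawn from -3 to 3). At its median the pump curve stands at 0.23, the hydrolase curve at 0.50 and the curve of all 9561 genes at -0.025.

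Promoters of members were examined because TFEB and TFE3 bind the core CACGTG, and 4 are printed: that of Lamp1 for its cluster of matches, those of Gaa and Glb1 for a single match in a gene that rose and in one that did not, and that of Pld3, the member with the largest difference, which has none. Each window runs from 250 bases before the annotated start to 50 after it, from RefSeq on build GRCm38.p6, 5′ to 3′ on the gene's strand, with CACGTG in capitals. CACGTG reads the same on both strands.
Lamp1 (chr8:13158911-13159210, plus strand): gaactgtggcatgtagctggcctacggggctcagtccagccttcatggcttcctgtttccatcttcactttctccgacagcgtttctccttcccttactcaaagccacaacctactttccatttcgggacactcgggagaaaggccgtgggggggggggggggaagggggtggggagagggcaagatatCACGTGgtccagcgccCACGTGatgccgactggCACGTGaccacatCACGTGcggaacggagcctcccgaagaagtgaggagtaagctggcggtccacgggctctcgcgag
Gaa (chr11:119267713-119268012, plus strand): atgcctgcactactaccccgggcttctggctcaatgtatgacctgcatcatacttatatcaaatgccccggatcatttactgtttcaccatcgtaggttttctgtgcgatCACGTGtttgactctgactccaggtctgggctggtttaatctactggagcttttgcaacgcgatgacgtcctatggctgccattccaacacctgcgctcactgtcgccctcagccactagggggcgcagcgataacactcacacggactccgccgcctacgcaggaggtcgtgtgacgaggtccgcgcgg
Glb1 (chr9:114400828-114401127, plus strand): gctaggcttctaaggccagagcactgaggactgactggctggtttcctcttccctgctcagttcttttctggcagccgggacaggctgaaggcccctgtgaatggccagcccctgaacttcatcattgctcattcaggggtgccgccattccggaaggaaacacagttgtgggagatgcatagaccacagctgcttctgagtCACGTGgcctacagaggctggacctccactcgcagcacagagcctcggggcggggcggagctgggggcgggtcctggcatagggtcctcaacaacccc
Pld3 (chr7:27553169-27553468, minus strand): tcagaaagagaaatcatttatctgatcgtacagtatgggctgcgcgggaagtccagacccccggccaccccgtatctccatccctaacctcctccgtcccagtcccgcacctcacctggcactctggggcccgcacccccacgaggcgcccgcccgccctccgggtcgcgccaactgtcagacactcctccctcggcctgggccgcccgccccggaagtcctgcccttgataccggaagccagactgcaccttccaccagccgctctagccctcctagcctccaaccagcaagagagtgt
The Lamp1 window held 4 matches, with first bases 61, 45, 28 and 15 bases before the start, the Gaa window 1 at 140 bases and the Glb1 window 1 at 48 bases. RefSeq windows were found for 39 of the 46 members, and 11 of those genes (28.2%) held CACGTG, against 8.09% of the 27025 genes in the table. The longer GTCACGTG or its reverse complement, every match of which also holds CACGTG, was found in 8 members (20.5%) and in 2.55% of all genes. CACGTG preceded by GT and also followed by AC was in 0 of the 39 and in 0.37% of all genes. Pump genes held the core in 4 of 11 windows (Atp6v0b, Atp6v0d1, Atp6v0e and Atp6v1a), hydrolases in 5 of 17 (Gla, Glb1, Gaa, Naglu and Arsa) and membrane proteins in 2 of 6 (Lamp1 and Mcoln1). The median log2 difference was 0.285 over the 10 tested members with it, of which 4 rose, and 0.335 over the 23 without it, of which 12 rose and 2 fell. Over all genes tested the median was -0.025, and 17.6% rose and 18.2% fell. A match is a string of letters and not a binding site, and its absence from a window says nothing of the factor.

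Both Tfeb probes were below background on every array, with lowest detection p-values of 0.108 and 0.277, so no fold is given for the regulator itself. Its relative Tfe3 had signals of 6.38, 6.79 and 7.13 on CCR9+ pDC arrays and 6.33, 5.77 and 6.02 on precursor arrays, a 1.65-fold rise (adjusted p = 0.0470). The call is marginal, and was lost with the replicate number as a block. It was lost without CCR9+ pDC replicate 2 or 3 or precursor replicate 2 or 3 (adjusted p = 0.113, 0.0871, 0.145 and 0.117), under median scaling (0.0515) and with no filter on dim probes (0.0686). The log2 difference of 0.72 was 0.30 without background correction.

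In the V0 sector, Atp6v0a1, the subunit through which protons pass with the ring, rose 1.73-fold (adjusted p = 0.00896). Its signals were 10.19, 10.35 and 10.62 on CCR9+ pDC arrays and 9.62, 9.36 and 9.80 on precursor arrays. Every CCR9+ pDC value lay above every precursor value, as it did for 24.2% of all genes. Atp6v0d1, which couples the ring to the central stalk, had signals of 11.91, 11.65 and 11.59 against 11.42, 11.32 and 11.34, a 1.28-fold rise (adjusted p = 0.0477). That call held only without CCR9+ pDC replicate 3 among the 6 fits that leave out an array, and over all alternatives its adjusted p ran from 0.00199 to 0.633, the highest being under median scaling, where the difference was 0.13. It was also lost with the mean of its 4 probes (0.162) and with no filter (0.0811). Atp6v0d2, the paralog of Atp6v0d1 best known from osteoclasts and macrophages, was not above background on any array (lowest detection p-value 0.391). Atp6v0b, a ring subunit, differed by 0.30 (adjusted p = 0.0780) and Atp6v0e by -0.021 (adjusted p = 0.882).

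In the V1 sector the stalk subunit Atp6v1d had the clearest rise, with signals of 12.10, 12.11 and 12.10 on CCR9+ pDC arrays against 11.38, 11.32 and 11.45 on precursor arrays. The 3 CCR9+ pDC values were nearly identical, and the difference was 1.65-fold (adjusted p = 0.000917). The catalytic subunit Atp6v1a differed by -0.069 and its partner Atp6v1b2 by 0.19, and neither passed. Atp6v1e1 and Atp6v1h, subunits of the outer stalk and of the regulatory collar, each differed by 0.26 (adjusted p = 0.0677 and 0.0733). Atp6v1c1 differed by 0.030, and Atp6v1g1 by -0.46 with precursor values spread from 6.23 to 7.25.

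The accessory subunit Atp6ap1, which assists pump assembly, had signals of 13.08, 13.14 and 13.15 in CCR9+ pDCs and 13.14, 13.09 and 13.13 in precursors. The groups overlapped, and the difference was 0.00034 with a 95% interval from -0.20 to 0.20. Atp6ap2, the prorenin receptor, differed by 0.23 (adjusted p = 0.0863), and 1 of its 4 probes passed in the fit over probes. Of the 10 pump genes that did not pass, 9 had a 95% interval within 1.5-fold of equality on either side, Atp6v1g1 being the exception. Counting genes that passed too, the interval was that narrow for 69.2% of the pump genes and 38.3% of all genes. A narrow interval is not equality: those of Atp6v0b, Atp6v1e1, Atp6v1h and Atp6ap2 lay wholly above 0, from 0.036, 0.042, 0.035 and 0.020 upward. These intervals are not adjusted for the number of genes. The number of pump genes that passed depended on the setting: 7 of 13 rose without background correction, under cyclic loess and with an intensity trend in the prior, and 8 with the authors' processed values, while 2 rose under median scaling. Of all genes, 19%, 19.6%, 19.4%, 22% and 10.3% rose in these settings, in that order. Under none of the 15 settings did a pump gene differ by more than 0.897 on the log2 scale. Of 9 further pump subunits listed, 4 were tested, with a median difference of 0.31. Only Atp6v1g2, a V1 stalk isoform, rose (1.78-fold, adjusted p = 0.00756), which is 25% of the 4, against 17.6% of all genes. That call was lost under median scaling (0.0916, the highest of its alternatives, which began at 0.00163). Tcirg1, the a3 isoform of the V0 sector, differed by 0.34 (adjusted p = 0.0736).

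Of the 6 membrane proteins tested 5 rose (83.3%, against 17.6% of all genes), and Scarb2 alone of these kept its call under all 15 alternatives. Scarb2, which encodes LIMP-2, the carrier of glucocerebrosidase to the lysosome, had signals of 9.07, 8.87 and 9.13 on CCR9+ pDC arrays and 7.89, 7.91 and 7.94 on precursor arrays, a 2.16-fold rise (adjusted p = 0.000284). Lamp1, a major glycoprotein of the lysosomal membrane and the gene with 4 core matches above, had signals of 12.65, 12.71 and 12.48 against 12.07, 12.04 and 12.06. Its 1.47-fold rise (adjusted p = 0.00487) did not overlap between groups but was lost under median scaling (0.158, the highest of its alternatives, which began at 7.09e-05). Lamp2, its closest relative, stood at 13.11, 13.17 and 13.03 in CCR9+ pDCs and 12.99, 13.09 and 13.18 in precursors. These values overlapped, and the difference was 0.016 with an interval from -0.21 to 0.25. One of 5 Lamp2 probes tested passed, at 0.37.

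Npc1, the membrane transporter that moves cholesterol out of the lysosome, had signals of 13.70, 13.74 and 13.98 against 13.08, 13.12 and 13.16, a 1.61-fold rise (adjusted p = 0.00301). Its 6 tested probes did not all move: the brightest rose by 0.69, another differed by 0.58 (adjusted p = 0.0550 over probes) and the other 4 differed by -0.17 to -0.015, so the mean of its probes gave 0.16 (adjusted p = 0.438). Npc2, the soluble partner that hands cholesterol to it, differed by 0.15 (adjusted p = 0.393). Mcoln1, the calcium channel of the lysosome, had signals of 6.46, 6.80 and 7.04 against 5.85, 6.02 and 6.28. The groups did not overlap and the rise was 1.64-fold (adjusted p = 0.0221), but the gene was dim, and without background correction the difference was 0.29. The Mcoln1 call was lost without CCR9+ pDC replicate 2 (0.0655) or precursor replicate 1 (0.0792) or 2 (0.0731), within a range of 0.0062 to 0.0792 over its alternatives. Ctns, the cystine exporter, rose 1.26-fold (adjusted p = 0.0287). Leaving out CCR9+ pDC replicate 1 or 2 or precursor replicate 1 or 2 ended that call (0.0625, 0.0666, 0.101 and 0.104), as did no filter (0.0533) and median scaling (0.722), where the difference was 0.080.

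**Figure D3:**
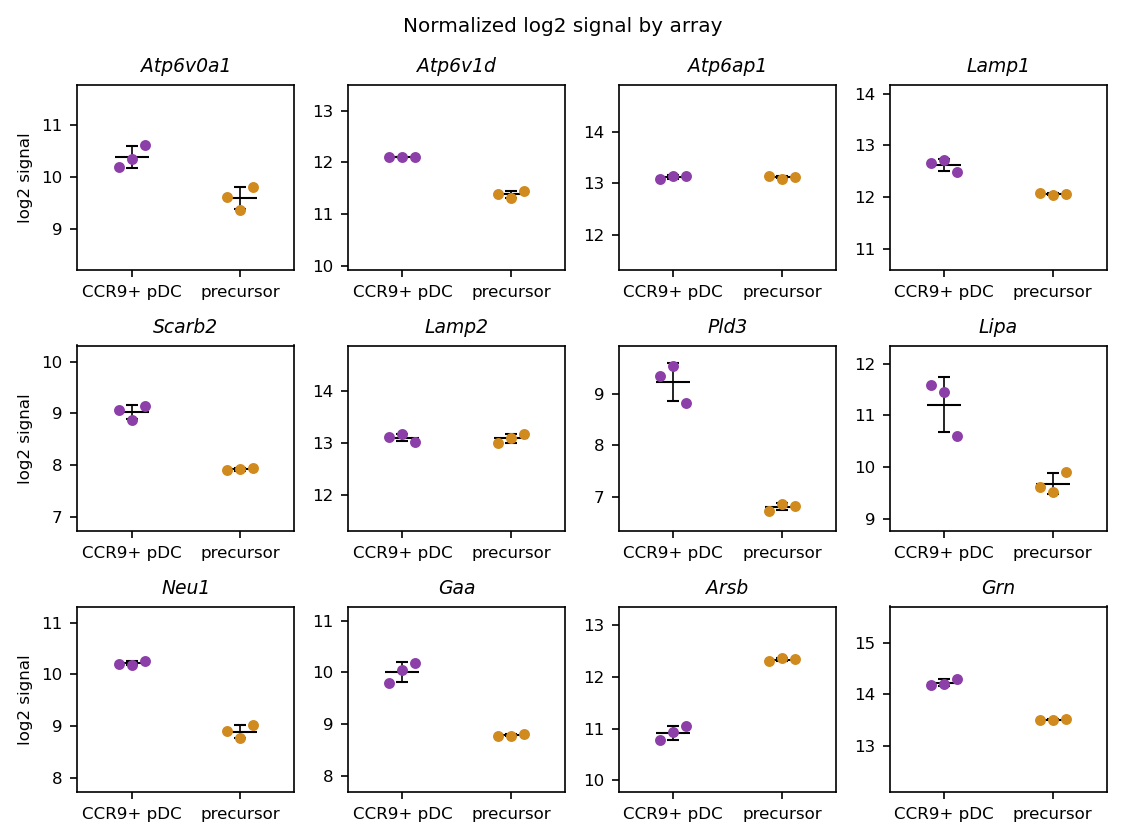
Normalized log2 signal of 12 lysosomal genes on each array (points), with the group mean and SD (bars, n = 3), every panel spanning 3.6 log2 units. Atp6ap1 and Lamp2 overlap between the groups, Arsb is lower in CCR9+ pDCs, and the other 9 genes are higher there on every array.

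Among glycosidases and sulfatases the changes ran both ways. Neu1, the lysosomal sialidase, had signals of 10.20, 10.18 and 10.26 on CCR9+ pDC arrays and 8.90, 8.76 and 9.01 on precursor arrays, a 2.50-fold rise (adjusted p = 0.000122). Gaa, the acid alpha-glucosidase that degrades glycogen, rose 2.33-fold from 8.77, 8.77 and 8.80 in precursors to 9.79, 10.04 and 10.18 (adjusted p = 0.000370). Both rises exceeded the spread within groups and held under every alternative. Man2b1, an alpha-mannosidase, had signals of 13.15, 13.13 and 13.00 against 12.75, 12.68 and 12.76. That 1.29-fold rise (adjusted p = 0.0206) was lost without any 1 array other than CCR9+ pDC replicate 3 (0.0557 to 0.0808) and under median scaling (0.362), where the difference was 0.21.

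Arsb, the sulfatase that acts on dermatan sulfate, went the other way. Its signals were 10.77, 10.93 and 11.05 in CCR9+ pDCs and 12.31, 12.36 and 12.34 in precursors. Every precursor value was higher, and the 2.68-fold fall (adjusted p = 0.000102) held under every alternative, at -1.64 to -1.24. Its other 2 probes did not pass the filter, and 1 of them was above background on 2 precursor arrays and on no CCR9+ pDC array. Gusb, the beta-glucuronidase often used as a lysosomal reference enzyme, stood at 11.62, 11.70 and 11.66 against 11.64, 11.69 and 11.61, and its difference of 0.013 had an interval from -0.19 to 0.21. The remaining tested enzymes of the class did not pass: Arsa (0.27), Naglu (0.22), Hexa (0.18) and Glb1 (-0.19). Gla, the alpha-galactosidase, was not above background (lowest detection p-value 0.126). In total 3 of the 9 tested in this class rose and 1 fell, 44.4% called against 35.8% of all genes. All 5 hydrolases that did not pass, Gusb among them, had 95% intervals within 1.5-fold of equality. Counting genes that passed too, this held for 37.5% of the hydrolases and 38.3% of all genes.

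All 7 tested enzymes that act on lipids, peptides, phosphate esters or nucleic acids passed, against 35.8% of all genes. Of the 7, 6 were higher (85.7%, against 17.6% of all genes), and the other, Acp2, had probes that passed in both directions. Pld3, a membrane-anchored exonuclease of endolysosomes that trims the DNA ligands of TLR9, had the largest difference of any member. Its signals were 9.35, 9.53 and 8.82 on CCR9+ pDC arrays and 6.74, 6.87 and 6.83 on precursor arrays, a 5.35-fold rise (adjusted p = 0.000131). A second Pld3 probe, detected on 1 precursor array only, rose 6.71-fold. Without background correction the rise was 1.61 on the log2 scale in place of 2.42, and it passed under every alternative.

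Lipa, the acid lipase that frees cholesterol from its esters, had signals of 11.59, 11.44 and 10.60 against 9.62, 9.52 and 9.90. CCR9+ pDC replicate 3 was the lowest of its group for both Lipa and Pld3 and lay above every precursor array, whereas it was the highest of its group for Gaa, Scarb2, Npc1 and Grn. Lipa rose 2.89-fold (adjusted p = 0.00496), with a second probe at 2.79-fold. Pla2g15, a lysosomal phospholipase, had signals of 12.12, 12.18 and 11.64 against 11.21, 11.09 and 10.98. The rise of 1.84-fold passed (adjusted p = 0.00661), and the call was lost under median scaling (0.0682). Ppt1, which removes palmitate from proteins, had signals of 8.62, 8.48 and 8.29 against 7.60, 7.81 and 7.65. It rose 1.71-fold (adjusted p = 0.00287), likewise lost under median scaling (0.0770). The highest adjusted p over the alternatives was that of median scaling for both genes, and the lowest were 0.000314 and 0.000923. Tpp1, a tripeptidyl peptidase, and Asah1, the acid ceramidase, rose 1.60- and 1.55-fold (adjusted p = 0.00363 and 0.00247).

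Acp2, the lysosomal acid phosphatase, depended on the probe. The probe with the highest mean signal, which stood for the gene, fell 1.38-fold (7.41, 7.46 and 7.76 against 7.86, 8.11 and 8.06; adjusted p = 0.0317). The other 3 probes, annotated to the same transcript, rose 5.85-, 4.53- and 3.86-fold in the fit over probes (adjusted p = 5.15e-05, 0.00324 and 0.000520). The groups did not overlap for any of the 4 probes. Over all 16857 probes 29.3% passed, 13.7% higher and 15.6% lower, and 46.4% did not overlap. With the mean of the probes Acp2 rose by 1.55 (adjusted p = 6.36e-05), and without precursor replicate 1 another probe became the brightest, so that the gene rose by 1.74. The fall itself was lost without any other 1 array but CCR9+ pDC replicate 3 (0.0851 to 0.110). In the RefSeq table Acp2 adjoins Nr1h3, the gene of the sterol receptor LXR-alpha, which was chosen here after its values were seen. No precursor array detected Nr1h3, whose level in CCR9+ pDCs was at least 12.6-fold higher. Nr1h3 was tested only because it was above background on the CCR9+ pDC arrays, so no p is given. Its part in the Acp2 signals was not tested. Acp5, the tartrate-resistant phosphatase of osteoclasts and macrophages, was not above background (lowest detection p-value 0.0545).

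**Figure D4:**
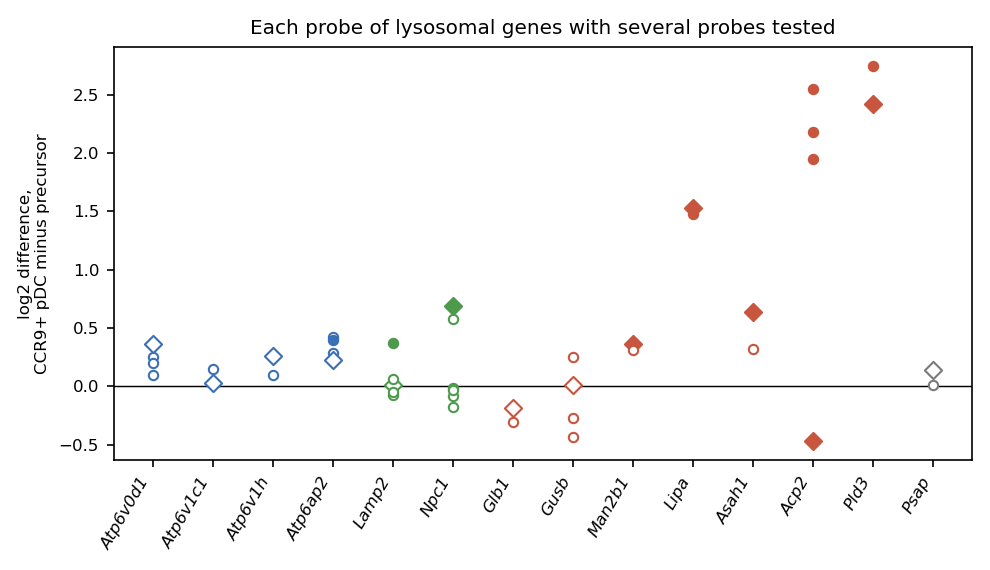
Log2 difference of every tested probe for the 14 lysosomal genes with more than 1 tested probe, diamonds marking the probe that stands for the gene and filled symbols those that passed in the fit over 16857 probes. Acp2 alone has probes that passed in opposite directions, and 10 of the 14 genes have probes of one sign only.

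Of the 4 tested proteins that assist the hydrolases or take part in their supply 1 rose and none fell, with differences from -0.54 to 0.72. That is 25% called, against 35.8% of all genes called and 17.6% higher. Grn, whose progranulin is cut into granulins in the lysosome, had signals of 14.18, 14.21 and 14.30 on CCR9+ pDC arrays and 13.50, 13.51 and 13.52 on precursor arrays. The rise of 1.65-fold (adjusted p = 0.000885) was many times the spread within groups and held under every alternative. Psap, the precursor of the saposins that present sphingolipids to their enzymes, stood at 15.79, 15.94 and 15.90 against 15.71, 15.79 and 15.71. The groups overlapped, and the difference of 0.14 did not pass (adjusted p = 0.274), except with the authors' processed values, where it was 0.48 (0.0122). Gm2a, the activator that lifts ganglioside from the membrane, was lower by 0.54 on the log2 scale without passing (adjusted p = 0.0761), though it passed without background correction (0.0337). Its CCR9+ pDC values were 13.50, 13.41 and 12.78, the last being replicate 3, against 13.84, 13.78 and 13.70.

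Other lysosomal genes, listed beside the members, were counted in the same fit. Of 17 further membrane proteins 14 were tested, 7 rose and 2 fell (64.3% called, against 35.8% of all genes), with a median difference of 0.48. Slc11a1, the phagosomal metal transporter NRAMP1, had signals of 13.31, 13.31 and 12.71 in CCR9+ pDCs against 10.42, 10.62 and 10.58, a 5.95-fold rise (adjusted p = 9.23e-05). Cd63, a tetraspanin of late endosomes, rose 3.74-fold (adjusted p = 0.000384) and Hgsnat, the acetyltransferase of heparan sulfate breakdown, 1.77-fold (adjusted p = 0.000851). Of 17 further enzymes 11 were tested, 2 rose and 1 fell, with a median of 0.15, and the 18.2% that rose is close to the 17.6% of all genes. That median was below the 0.31 of the 4 further pump subunits tested, the reverse of the order among the members. Idua, the iduronidase, rose 2.01-fold (adjusted p = 0.00233) and Man2b2 1.73-fold (adjusted p = 0.00217, and 0.0551 under median scaling), while Smpd1, the acid sphingomyelinase, fell 1.70-fold (adjusted p = 0.00164).

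Of 18 sorting and biogenesis genes 12 were tested, 6 rose (50%, against 17.6% of all genes) and none fell. Sort1, the sorting receptor sortilin, which carries prosaposin and progranulin, had signals of 13.39, 13.35 and 13.45 on CCR9+ pDC arrays against 11.55, 11.52 and 11.68 on precursor arrays, a 3.51-fold rise (adjusted p = 2.49e-05). Igf2r, the large mannose phosphate receptor, stayed below background in the precursors, and its level in CCR9+ pDCs was at least 2.11-fold higher. Igf2r was tested only because it was above background on the CCR9+ pDC arrays, so no p is given and its place among the 6 is no support. Its fold rests on the background correction: the log2 difference was 1.52 with it, 0.55 without it and 0.56 on the authors' processed table. Mtor, the kinase that reads nutrients at the lysosome, was at 9.39 in CCR9+ pDCs and 9.44 in precursors (mean signals), with no call (adjusted p = 0.741). Macrophage, granulocyte and basophil markers were higher on the same arrays as each of these groups, with the summed signals given above.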

How the data were processed

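Total RNA of 6 sorted samples, 3 per group, was measured on Illumina BeadChip arrays. The deposited non-normalized table gives linear probe intensity, array by array, each beside its detection p-value, per the file headers. A second table of the authors holds processed intensity values whose normalization no label or header states; it served as an alternative. BeadStudio and lumi are named in the submitters' processing notes, without versions.

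As in limma's neqc, normexp background correction came first (offset 16), then quantile normalization and log2 followed (R 4.3.3, limma 3.58.1). A probe was kept when 3 or more arrays had its detection p-value under 0.05 (16857 probes). Symbols came from the platform annotation, updated through Entrez identifiers with RefSeq (GRCm38.p6): 34885 probes had 1 symbol, 18 several and 10378 none listed. The kept probe with the highest mean signal stood for a gene, giving 9561 genes. Groups were compared with lmFit and eBayes over all 6 arrays, with Benjamini-Hochberg adjustment over all genes; a second fit covered all kept probes. A fold is a lower bound, and said to be "at least", where no probe of the gene was above background in 1 group: the other group's mean is set against the higher of the probe's own signal and the lowest signal of a detected probe. Summed marker signals are linear, after subtraction of the offset. The fit was tested on simulated data. Precision is limited by the number of arrays, and p-values measure the spread between these samples.

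The members, the other gene lists and the markers were chosen with earlier results of these data known. Genes with values of every array were, per role, up to 4 called members of largest difference, the one nearest 0 and a few fixed names; up to 3 called genes were named per other list. The printed promoters and Nr1h3 were chosen after values were seen.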

Additional observations from a re-analysis of the deposited data

How the results depend on the processing

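Of the 20 members called, 11 passed under all 15 alternatives and 15 without any 1 array. Atp6v0d1, Lamp1, Npc1, Mcoln1, Ctns, Man2b1, Ppt1, Pla2g15 and Acp2 lost their call under at least 1. The number of pump genes called was 3, but 7 with no background correction, with cyclic loess or with a robust prior trended on intensity, and 8 on the authors' processed table. All of these rose, while the share of all genes that rose was 17.6%, and 19%, 19.6%, 19.4% and 22% in those alternatives, in that order. Leaving out 1 array gave 15 to 20 called members, 2 to 3 pump genes, 9 to 11 hydrolases and 2444 to 3530 of all genes. The pump median of 0.23 was 0.0087 under median scaling, 0.29 after cyclic loess, 0.32 on the authors' processed table and 0.19 with probe means, and 0.18 to 0.25 without 1 array. The hydrolase median of 0.50 was 0.33 under median scaling and 0.32 with no filter on dim probes, and 0.46 to 0.66 without 1 array. The median of all genes was -0.19 under median scaling, where 986 genes rose in CCR9+ pDCs and 2124 fell, against 1683 and 1737, and where 12 members rose and 2 fell.

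Signs turned as follows. Under median scaling Atp6v1b2 was -0.041, Atp6v1c1 -0.22, Atp6ap1 -0.18, Lamp2 -0.17, Hexa -0.095, Gusb -0.21 and Npc2 -0.11, none of them called in either setting. Atp6v0e was 0.053 after cyclic loess and 0.14 on the authors' processed table. With probe means Gusb was -0.11 and Acp2 1.55. Leaving out 1 array turned Atp6v0e, Atp6v1a, Atp6ap1, Lamp2, Gusb and Acp2; over the arrays left out Atp6v0e ran from -0.053 to 0.028, Atp6v1a from -0.19 to 0.010, Atp6ap1 from -0.014 to 0.020, Lamp2 from -0.033 to 0.061, Gusb from -0.0079 to 0.035 and Acp2 from -0.58 to 1.74. The cause of these changes was not tested, except that Acp2 changed its probe. With no filter 19057 genes were tested and 3066 called.

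Replicate numbers are shared by the groups. Deviations of same-numbered arrays correlated at 0.35, 0.044 and 0.24, and those of differently numbered arrays at -0.298 to 0.0628. Replicates 1 and 3 thus lay above every differently numbered pair, and replicate 2 lay within their range. The numbers may therefore pair the arrays. The labels give no pairing, so the main fit used none and the replicate number was tried as a block. With the replicate block 18 members rose and 2 fell, 3 pump genes and 11 hydrolases were called, and 3361 of all genes were called; of the genes named, only Tfe3 lost its call (adjusted p = 0.0849).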
